A study of Mus musculus with 78 samples.

Results

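The dorsal hippocampus and the dorsal striatum of the same mice were compared, using every library whose title names either region. These were 24 of the 78 libraries of the series, 12 for each region, and each of the 12 mice gave one of both. Poly(A) RNA was sequenced from mice on the C57BL6/J background that were either wild type (WT) or carried a constitutive CRISPR deletion in Acss2 (KO), and reads were counted per gene. The deletion runs from upstream of exon 3 to downstream of exon 7 and is not limited to a region or cell type. Each region had 3 KO females (mice 4, 5 and 6), 3 WT females (11, 23 and 24), 3 KO males (1, 2 and 10) and 3 WT males (3, 12 and 13). All of these mice were singly housed adults that had been through the drinking-in-the-dark procedure, which models binge drinking. They were offered 15% ethanol by volume for 2 h on days 1 to 3 and 4 h on day 4, beside water in the first week after a habituation of 1 week and alone in the next. All differences between the regions are thus those of mice that had drunk ethanol, of both genotypes together. Library totals ranged from 4454420 to 8607138 counts in the dorsal hippocampus and from 5842607 to 14487778 in the dorsal striatum.

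The hippocampus is a cortical structure whose principal neurons, the granule cells of the dentate gyrus and the pyramidal cells of fields CA1 to CA3, release glutamate and carry information about place and episode. Nearly all neurons of the dorsal striatum are instead GABA-releasing spiny projection neurons. Those of the direct pathway carry the dopamine receptor DRD1, dynorphin and substance P, and those of the indirect pathway carry DRD2, the adenosine receptor ADORA2A and enkephalin. In direct pathway neurons, DRD1 acts on cyclic AMP through the G protein subunit encoded by Gnal and the adenylyl cyclase encoded by Adcy5. The region is known for its part in habits, including habitual drug and ethanol use.

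The genotype labels were checked first. Acss2, which encodes the enzyme that makes acetyl-CoA from acetate outside the mitochondria, was at 4.47 to 8.51 CPM (the count per 1000000 counts of the library, with no correction for gene length) in the 6 KO libraries of the dorsal hippocampus and at 42.8 to 69.6 in the 6 WT libraries. In the dorsal striatum it was at 5.10 to 7.82 CPM in the KO libraries and at 35.9 to 73.8 in the WT libraries. KO and WT values did not overlap in either region. Between the regions, the log2 difference of Acss2 was 0.06 ± 0.10 over 12 mice and 0.18 ± 0.09 over 10, with adjusted p = 0.676 and 0.111. No regional difference was thus detected with both genotypes together. Only the WT mice carry the intact gene, and their CPM ranges in the regions overlapped. Here and below, a log2 difference is dorsal hippocampus minus dorsal striatum from edgeR's quasi-likelihood fit with the mouse as a block. The ± is an approximate standard error (SE), the size of that difference divided by the square root of its F statistic. Adjusted p is the Benjamini-Hochberg value of the same test over all genes tested.

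The libraries labelled dorsal striatum of mouse 10 (KO male) and mouse 23 (WT female) stood apart from the other 10. Drd2 was at 7.2 and 0.171 CPM in them and at 127 to 270.1 CPM (median 197) in the others. Ppp1r1b, which encodes the dopamine-regulated phosphatase inhibitor DARPP-32, was at 169.7 and 95.3 CPM against 1259.6 to 2559 CPM (median 1755). In both, these defining genes of striatal neurons were below the lowest value of the others. Slc17a7, the vesicular glutamate transporter of cortical and hippocampal neurons, was at 1763 and 1856 CPM in the same libraries and at 23.8 to 862 CPM (median 243) in the other 10. The summed CPM of 15 cortical layer markers was 1083 and 945, against 291 to 598 in the other dorsal striatum libraries and 954 to 1422 in the 11 cortex libraries of the series. Of 22 marker lists, the summed level of mouse 10 lay within the range of the cortex libraries for 19 and within that of the other 10 dorsal striatum libraries for 6. For mouse 23 these numbers were 16 and 5. Both libraries go against their region label, and list counts and log2 differences below are therefore given over all 12 mice and over the 10 mice without them, except where only one is named. CPM ranges are those of the 10 mice unless stated otherwise.

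**Figure D1:**
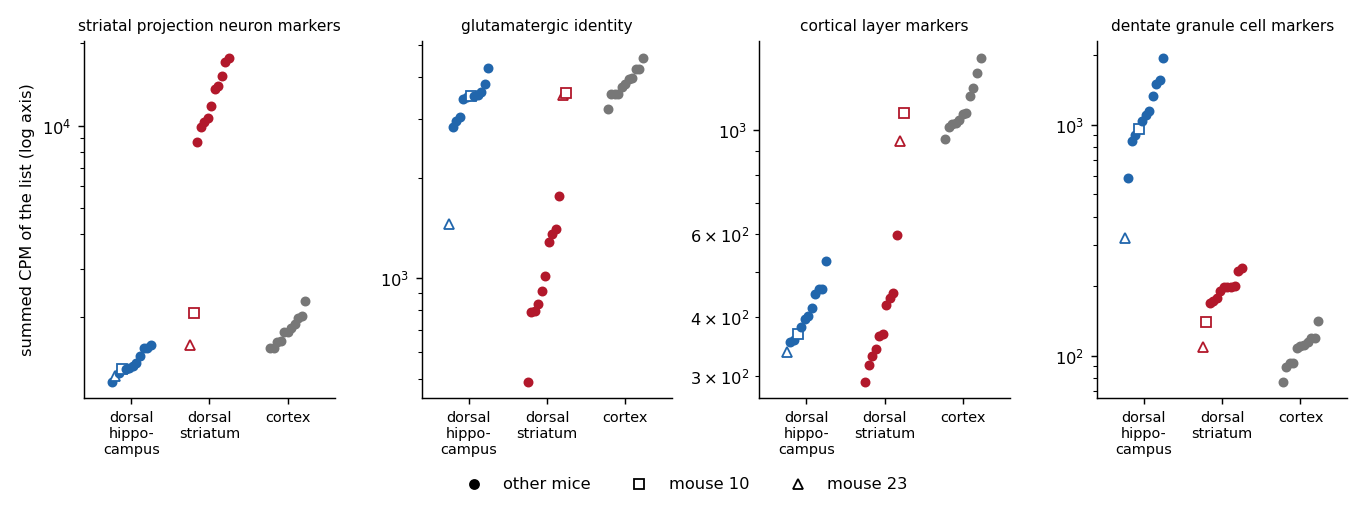
Summed CPM of 4 marker lists (log axis) in each library of the dorsal hippocampus, the dorsal striatum and the cortex, each point being 1 library and the open square and triangle those of mice 10 and 23. For striatal projection neuron markers, the dorsal striatum libraries of mice 10 and 23, at 2062 and 1571 CPM, lie with the cortex (1537 to 2281) and not with the other 10 (8706 to 17726).

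The dorsal hippocampus library of mouse 23, which is dropped together with its partner, also stood apart from the other 11. Its summed dentate granule cell markers were at 324 CPM (others 586 to 1949). Choroid plexus markers reached 4891 CPM in it (others 34 to 1322), and thalamus markers 1111 (others 83.7 to 833). The median correlation of log2 CPM with the other libraries of its own region was 0.943 for this library and 0.930 for both dorsal striatum libraries above. The lowest value among the remaining 21 libraries was 0.966. High sums of choroid plexus and thalamus markers also occurred in libraries that were kept. In the dorsal striatum of the 10 mice, these sums reached 6676 CPM (median 116) and 584 CPM (median 156). The thalamus value was that of mouse 13, whose striatal library was also the deepest, at 14487778 counts.

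Over 12 mice, 7152 of 13745 genes tested differed between the regions (52%). Of these, 3440 were higher in the dorsal hippocampus (25%) and 3712 in the dorsal striatum (27%). A difference of at least 2-fold at the same threshold was found for 797 genes higher in the dorsal hippocampus (5.8%) and 601 higher in the dorsal striatum (4.37%). Over the 10 mice, 8010 of 13846 genes differed (57.9%). Of these, 4084 were higher in the dorsal hippocampus (29.5%) and 3926 in the dorsal striatum (28.4%), with 980 (7.08%) and 791 (5.71%) at 2-fold or more. Of the genes tested in both fits, 97.3% of those called higher in the dorsal hippocampus and 89.3% of those called higher in the dorsal striatum over 12 mice were called in the same direction over 10, and none was called in the opposite direction. The CPM ranges of the regions were apart for 902 genes over 12 mice (6.56%) and for 2560 over 10 (18.5%). For the list counts below, the shares of all genes to set beside them are 25% (hippocampus) and 27% (striatum) over 12 mice. Over 10 mice they are 29.5% and 28.4%.

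**Figure D2:**
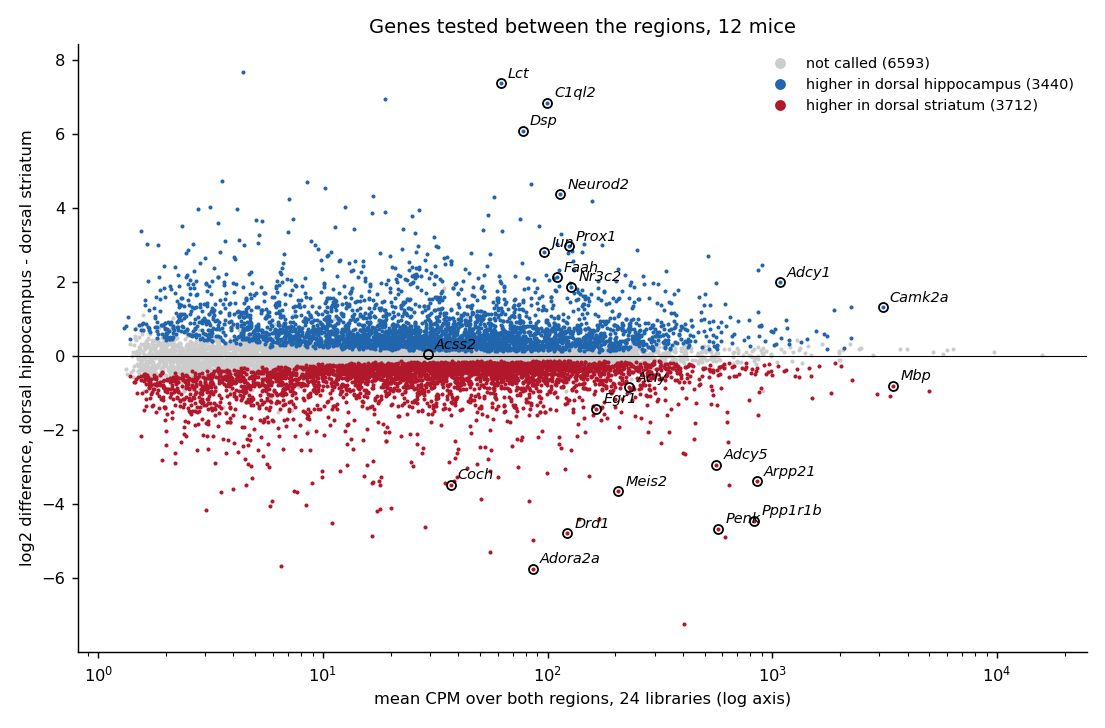
Log2 difference between the regions against the mean CPM over all 24 libraries (log axis), each point being 1 of 13745 genes tested over 12 mice, coloured by adjusted p under 0.05. Lct at 7.38 and Adora2a at -5.74 are the extremes among the labelled genes, and Acss2 at 0.06 lies on the line of no difference.

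The promoters of a few genes with large differences, chosen by a rule, are shown first. The rule leaves out genes whose ranges overlap over 12 mice, some with larger differences, such as Adora2a (-5.74). The promoters are drawn from the 12 genes in each direction with the largest log2 difference, CPM ranges apart over 12 mice and at least 20 CPM in the higher region. Of those genes, 5 in the dorsal hippocampus and 8 in the dorsal striatum have 1 annotated promoter in RefSeq (GRCm38.p6). Each run holds the 250 bases before the annotated start, read 5′ to 3′ on the strand of the gene. Capitals mark matches, on either strand, to any of 6 motifs, of which these windows hold 3. The GC box, bound by SP-family factors, was searched as GGGCGG. The core promoter box named after its bases was searched as TATAAA. The motif of the MEIS family, to which Meis2 belongs, was searched as TGACAG. The remaining motifs were the NEUROD-type E-box as CATCTG, the forkhead-type motif as GTAAACA, and the full cyclic AMP response element as TGACGTCA. Lct and C1ql2 were higher in the dorsal hippocampus, and their windows lie at chr1:128328319-128328568, minus strand, and chr1:120340332-120340581, plus strand. Meis2 and Adcy5 were higher in the dorsal striatum, with windows at chr2:116064620-116064869, minus strand, and chr16:35154614-35154863, plus strand.
Lct: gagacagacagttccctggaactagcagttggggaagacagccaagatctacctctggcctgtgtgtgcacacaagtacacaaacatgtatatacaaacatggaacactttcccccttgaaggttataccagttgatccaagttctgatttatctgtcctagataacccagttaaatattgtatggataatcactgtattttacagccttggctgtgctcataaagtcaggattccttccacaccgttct
C1ql2: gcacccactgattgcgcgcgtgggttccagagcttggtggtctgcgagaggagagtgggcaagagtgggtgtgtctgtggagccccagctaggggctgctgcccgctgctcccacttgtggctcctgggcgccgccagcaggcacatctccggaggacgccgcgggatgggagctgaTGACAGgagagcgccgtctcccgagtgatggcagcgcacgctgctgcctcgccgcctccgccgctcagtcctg
Meis2: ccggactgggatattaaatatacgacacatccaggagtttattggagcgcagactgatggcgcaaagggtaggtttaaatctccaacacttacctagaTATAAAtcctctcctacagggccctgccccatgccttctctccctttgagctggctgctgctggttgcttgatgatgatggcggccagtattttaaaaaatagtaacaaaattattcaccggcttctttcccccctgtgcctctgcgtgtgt
Adcy5: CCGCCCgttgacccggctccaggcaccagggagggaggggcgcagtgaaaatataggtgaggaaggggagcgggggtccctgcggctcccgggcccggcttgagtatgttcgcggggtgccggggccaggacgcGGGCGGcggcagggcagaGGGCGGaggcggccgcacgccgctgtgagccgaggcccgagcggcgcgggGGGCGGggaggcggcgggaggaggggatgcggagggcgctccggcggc
The window of Adcy5 has 4 GC boxes, 32 CpG dinucleotides and a GC content of 78.0%, while that of Lct has 1 CpG, a GC content of 42.8% and none of the 6 motifs. Over the 8365 tested genes with 1 promoter, the median GC content was 60.8%, and these windows lie beyond its 5th and 95th percentiles (44.8% and 76.8%). GC boxes were found in 2 of the 5 dorsal hippocampus promoters, 5 of the 8 dorsal striatum promoters and 61.7% of the 8365. The MEIS-type motif, which overlaps none of the others, was in C1ql2 alone among the 13 promoters, against 13.5% of the 8365, and the TATA-type motif in Meis2 alone, against 5.88%. The E-box, forkhead-type and cyclic AMP motifs were in none of the 13, against 9.19%, 2.03% and 2.93% of the 8365. A match describes letters in the window and is not evidence of a bound site.

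Among neuronal markers of the hippocampal fields, those of the dentate gyrus differed most. All 10 dentate granule cell markers tested were higher in the dorsal hippocampus, with a median log2 difference of 3.38 over 12 mice and 3.46 over 10, beside -0.03 and -0.01 over all genes tested. Lct, which encodes lactase and is a known marker of granule cells, was at 75.7 to 221 CPM (median 126) in the dorsal hippocampus of the 10 mice and at 0 to 1.39 CPM (median 0.0743) in the dorsal striatum. In the dorsal striatum, 8 of these 10 libraries had at most 3 counts of Lct, which was the floor used here, so its log2 difference of 7.38 ± 0.55 over 12 mice and 8.83 ± 0.32 over 10 depends on the small count added to each library. C1ql2, a synaptic organiser secreted by granule cell axons, was at 107 to 369.5 CPM (median 196) against 0.156 to 13.2 CPM (median 1.29). Its log2 difference was 6.85 ± 0.41 over 12 mice and 6.75 ± 0.41 over 10, with adjusted p = 3.15e-08 and 1.42e-08. Prox1, the transcription factor that keeps granule cell identity, was at 96.2 to 406 CPM (median 221) against 21.4 to 43.2 CPM (median 27.5), a log2 difference of 2.97 ± 0.21 over 12 mice and 3.08 ± 0.21 over 10. The groups did not overlap for any of these genes, with or without mice 10 and 23. For Lct and C1ql2 this was a condition of the rule for the largest differences. The lowest hippocampal value of each was that of mouse 23, at 34.6, 36.1 and 57.7 CPM. In whole tissue, a lower share of a cell type and less RNA per cell of that type cannot be told apart.

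**Figure D3:**
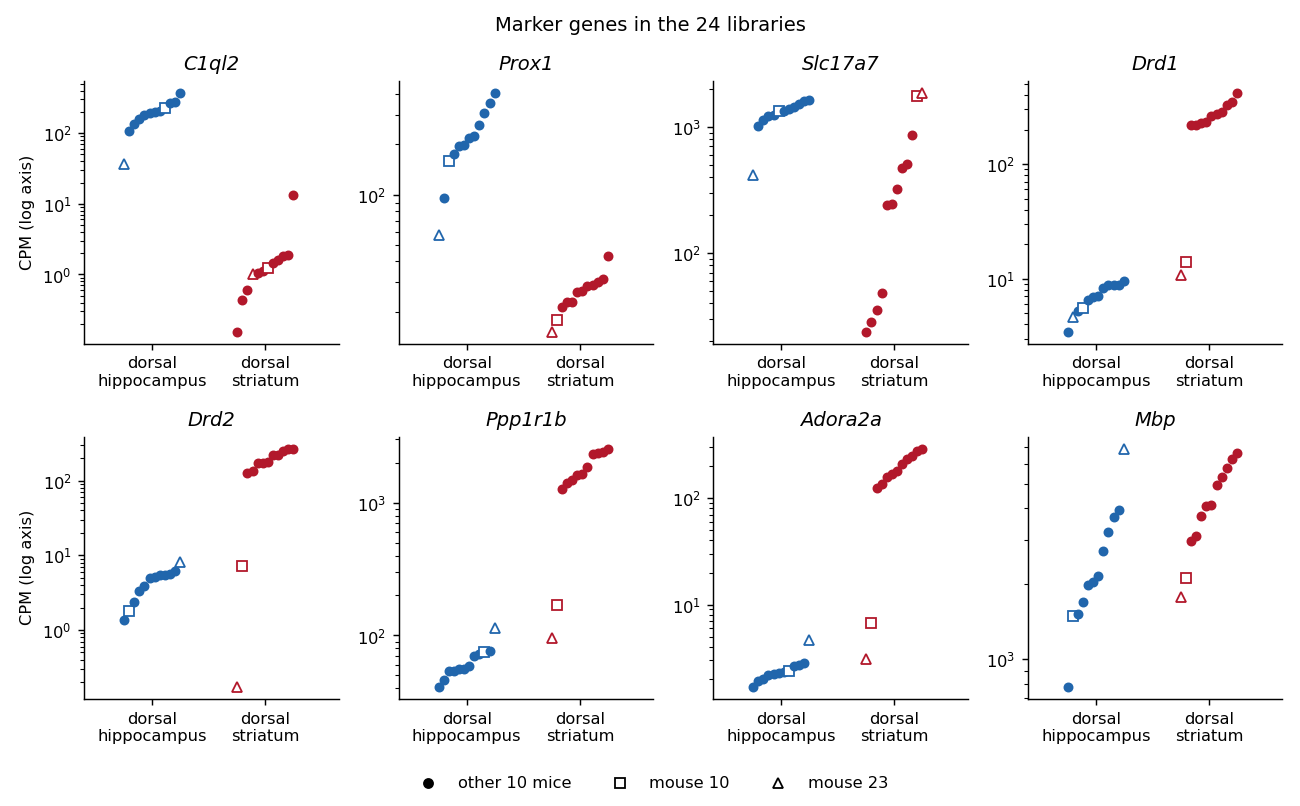
CPM (log axis) of 8 marker genes in every library, each point being 1 library, with open squares for mouse 10 and open triangles for mouse 23. C1ql2, Prox1 and Drd1 keep the regions apart in all 24 libraries, which the rule for the largest differences required of C1ql2 and Drd1. Drd2 at 7.20 and 0.171 CPM and Slc17a7 at 1763 and 1856 place the dorsal striatum libraries of mice 10 and 23 outside the others of their label.

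CA3 and CA1 markers were less uniform. Of 5 CA3 markers tested over 12 mice, 4 were higher in the dorsal hippocampus (5 of 6 over 10), led by the synaptic scaffold gene Homer3 at 2.66 and 2.74 log2 over 12 and 10 mice. The exception in both, Coch, which encodes cochlin, a secreted protein known from the inner ear, went the other way. Coch was at 1.49 to 12.3 CPM (median 4.31) in the dorsal hippocampus and at 35.7 to 103 CPM (median 74.8) in the dorsal striatum. The dorsal striatum libraries of mice 10 and 23, which go against their label, held 39.7 and 26.4 CPM. Both were above all hippocampal libraries of the 10 mice, as the rule for the largest differences required of Coch. Of 8 CA1 markers, Fibcd1, Spink8 and Ccn3 were higher in the dorsal hippocampus and 5 were not called over 12 mice. Over 10 mice 4 were higher there, 3 were not called, and Man1a, a mannosidase of glycoprotein processing, was higher in the dorsal striatum, at -0.65 against -0.41 over 12. Fibcd1 was at 32.9 to 176 CPM (median 86.3) against 7.93 to 20.4 CPM (median 14.9). Wfs1, a gene of the endoplasmic reticulum that marks dorsal CA1 but is transcribed elsewhere too, had overlapping ranges of 41.4 to 191 CPM (median 105) and 74.9 to 165 CPM (median 111) and a log2 difference of -0.06 ± 0.21 over 12 mice and -0.19 ± 0.21 over 10 (adjusted p = 0.824 and 0.457).

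The 12 genes that the rule for the largest differences named toward the dorsal hippocampus included Cabp7, a calcium-binding protein of the calmodulin family. It was at 228 to 427 CPM (median 289) against 7.94 to 36.2 CPM (median 13.4). Pcdh20, a protocadherin, was at 111 to 293 CPM (median 186) against 6.84 to 25.7 CPM (median 14.9), and Dsp, the desmosomal protein desmoplakin from the granule cell list, at 70.8 to 274 CPM (median 160.0) against 0.446 to 10.4 CPM (median 1.38). Ranges apart in the 24 libraries were a condition of the rule that named these 3. Also among these 12 were Cebpd, Tspan18, Kcng2, Shisa6, Lmo1 and the granule cell marker Il16, with log2 differences from 3.44 (Lmo1) to 4.03 (Cebpd) over 12 mice.

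In the dorsal striatum, 13 of the 14 markers of striatal projection neurons were higher and 1 was not called, with a median log2 difference of -3.05 over 12 mice and -3.49 over 10. Ppp1r1b was at 40.8 to 77 CPM (median 55.6) in the hippocampus of the 10 mice, below the striatal values of the same mice given above, with a log2 difference of -4.45 ± 0.53 over 12 mice and -4.95 ± 0.17 over 10 and adjusted p = 8.66e-06 and 1.29e-10. The hippocampal library of mouse 23 held 114 CPM, above its striatal library, so that the regions overlapped over 12 mice. The sodium channel subunit Scn4b was at 823 to 2027 CPM (median 1334) against 16.7 to 68.1 CPM (median 39.5), and the phosphodiesterase Pde10a at 853 to 2272 CPM (median 1272) against 60.6 to 117 CPM (median 85.2). The member not called was Bcl11b, also known as CTIP2, a transcription factor that striatal neurons share with the hippocampal CA1 and dentate neurons. It was at 157 to 257 CPM (median 204) in the dorsal hippocampus and 177 to 329 CPM (median 222) in the dorsal striatum, with overlapping ranges and a log2 difference of 0.01 ± 0.17 over 12 mice and -0.16 ± 0.09 over 10 (adjusted p = 0.973 and 0.149).

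Markers of both output pathways were higher in the dorsal striatum. All 6 indirect pathway markers tested over 12 mice and all 7 over 10 were higher, with medians of -4.63 and -5.18. Adora2a, the adenosine receptor of these cells, was at 124 to 292 CPM (median 196) against 1.68 to 2.82 CPM (median 2.27), a log2 difference of -5.74 ± 0.58 over 12 mice and -6.39 ± 0.14 over 10. Penk, the enkephalin precursor, was at 976 to 1792 CPM (median 1296) against 21.3 to 52.7 CPM (median 34.5). Drd2 was at 1.35 to 6.24 CPM (median 5.04) in the hippocampus and differed by -4.96 ± 0.63 over 12 mice and -5.46 ± 0.22 over 10. With mice 10 and 23 included, all 3 of these genes overlapped between the regions. The striatal libraries of those mice held 66 and 42.3 CPM of Penk. Over the 10 mice none of the 3 overlapped.

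Of the direct pathway markers, 6 of 8 tested were higher in the dorsal striatum over 12 mice and 8 of 9 over 10. Drd1 was at 219 to 417 CPM (median 269) against 3.45 to 9.44 CPM (median 7.68), with a log2 difference of -4.78 ± 0.40 over 12 mice and -5.21 ± 0.11 over 10. The dorsal striatum libraries of mice 10 and 23 held 13.9 and 10.8 CPM, above every hippocampal library, as the rule that named Drd1 required. Both values lie within the 3.14 to 31.7 CPM (median 11.8) of the cortex libraries. Tac1, the substance P precursor, was at 120.4 to 237 CPM (median 185) against 4.45 to 13.1 CPM (median 8.07). Pdyn, the dynorphin precursor, which dentate granule cells also make, differed less, at 51.6 to 105 CPM (median 80.2) against 14.3 to 49.6 CPM (median 27.5) (-1.51 ± 0.16 over 12 mice and -1.56 ± 0.11 over 10). Eya1, a transcriptional coactivator on the list, was higher in the dorsal hippocampus at 1.26 and 1.43 log2. Genes of cholinergic interneurons were at low CPM. Slc5a7, the choline transporter of these cells, was at 23.9 to 55.1 CPM (median 37.5) against 0.133 to 10.3 CPM (median 0.539) and differed by -4.85 ± 0.46 over 12 mice and -4.87 ± 0.40 over 10. In the dorsal hippocampus, 5 of these 10 libraries had at most 3 counts of Slc5a7, and the highest value was that of KO female 6, with 86 counts. Over 12 mice 1 of 2 cholinergic markers tested and over 10 mice 5 of 6 were higher in the dorsal striatum.

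Transcription factors of the 2 lineages were called in opposite directions. Of 16 pallial transcription factors tested, 12 were higher in the dorsal hippocampus, none was higher in the dorsal striatum and 4 were not called, with a median of 1.74 over 12 mice and 2.11 over 10. Over 10 mice 13 were called, Tbr1 being the addition. Neurod2, a basic helix-loop-helix factor of excitatory neurons, was at 161 to 301 CPM (median 228) against 0.345 to 27.5 CPM (median 8.99), and differed by 4.37 ± 0.70 over 12 mice and 4.98 ± 0.48 over 10 (adjusted p = 0.000124 and 9.28e-07). Bhlhe22, of the same family, was at 106 to 251 CPM (median 163) against 0.806 to 16.9 CPM (median 2.82). Zbtb20, a zinc finger protein required for hippocampal fate, was at 187 to 442 CPM (median 335) against 84.6 to 152 CPM (median 115), with a smaller difference of 1.50 ± 0.13 over 12 mice and 1.51 ± 0.12 over 10. In the dorsal striatum libraries of mice 10 and 23 Neurod2 was at 64.4 and 64.9 CPM, above the other 10, while Zbtb20 at 42.9 and 58.4 was below them.

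Of 21 striatal transcription factors tested over 12 mice, 14 were higher in the dorsal striatum and 7 were not called, with a median of -1.29. Over 10 mice 17 of 22 were called, all in that direction, with a median of -1.76. Rarb, the retinoic acid receptor beta, was at 82.8 to 154 CPM (median 111) against 4.2 to 7.78 CPM (median 5.08). Its partner Rxrg was at 78.6 to 204 CPM (median 123) against 0.944 to 2.95 CPM (median 1.97), a log2 difference of -5.30 ± 0.56 over 12 mice and -5.97 ± 0.18 over 10. Meis2, a homeobox factor of the lateral ganglionic eminence from which striatal neurons arise, was at 358 to 563 CPM (median 421) against 7.82 to 46.1 CPM (median 26.1) and differed by -3.65 ± 0.34 over 12 mice and -4.00 ± 0.23 over 10. Foxp1 and Foxp2, forkhead factors of projection neurons, differed by -2.14 and -2.33 and by -3.42 and -3.66 log2 over 12 and 10 mice. Six3, a homeobox factor of indirect pathway neurons, had a wide error, at -4.11 ± 0.84 over 12 mice and -4.66 ± 0.47 over 10. At most 3 counts of Six3 were found in 4 of the 10 hippocampal libraries. The dorsal striatum libraries of mice 10 and 23 held 0.782 and 0 CPM of Six3, where the others held 22.7 to 57.3 CPM (median 46.9).

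Genes of glutamatergic identity were mostly higher in the dorsal hippocampus, 5 of 8 over 12 mice and 6 of 8 over 10. Slc17a7 was at 1019 to 1622 CPM (median 1362) in the dorsal hippocampus of the 10 mice and differed by 2.47 ± 0.74 over 12 mice and 3.17 ± 0.59 over 10 (adjusted p = 0.012 and 0.000369). Its range in the dorsal striatum was wide, from 23.8 CPM in KO female 6 to 862 in WT male 3, the library with the highest sum of cortical layer markers among the 10 (598 CPM). Whether tissue next to the striatum had a part in this spread was not tested. Over 12 mice without the mouse as a block, the difference of Slc17a7 was 1.39 and not called (adjusted p = 0.0513), and its adjusted p reached 0.165 in WT mice alone. Without mouse 3 as well as mice 10 and 23, a choice made after seeing the data, the difference was 3.47 (adjusted p = 0.000167). Slc17a8, the third vesicular glutamate transporter, which cholinergic interneurons carry, was higher in the dorsal striatum, at 11.5 to 28.8 CPM (median 16.6) against 4.29 to 10.3 CPM (median 5.46). Nrgn, the calmodulin-binding neurogranin, differed by 0.98 ± 0.22 over 12 mice and 1.26 ± 0.13 over 10. Genes that make and load GABA were higher in the dorsal striatum. Gad2 was at 366 to 555 CPM (median 442) against 119.9 to 215 CPM (median 141), and Gad1 and Slc32a1 differed by -0.79 and -0.85 and by -1.59 and -1.84 log2. The GABA neuron and interneuron list, which also holds Gad1, Gad2 and Slc32a1, had 7 of 16 members higher on each side over 12 mice and 8 of 17 over 10. Apart from those genes, Reln, Lhx6, Th and Lamp5 were the members higher in the dorsal striatum, and over 10 mice also Nkx2-1. The peptide gene Cck was higher in the dorsal hippocampus at 2.78 and 3.30, and Sst at 0.73 and 0.73.

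Dopamine signalling was the pathway list with the lowest median. Of 19 genes tested, 15 were higher in the dorsal striatum and 3 in the dorsal hippocampus over 12 mice (15 and 4 over 10), with medians of -1.81 over 12 and -2.20 over 10. Many of its genes were also on the list of striatal projection neuron markers. Gnal, the G protein subunit that couples DRD1 to cyclase, was at 614 to 1089.8 CPM (median 788) against 132 to 254 CPM (median 178), while Gnas, the subunit used by most other tissues, was higher in the hippocampus at 1223 to 1586 CPM (median 1336) against 502 to 1058 CPM (median 809). The cyclases were divided as well. Adcy5 was at 824 to 1695 CPM (median 1141) against 83.8 to 138 CPM (median 109), with a log2 difference of -2.93 ± 0.34 over 12 mice and -3.33 ± 0.14 over 10. Adcy1, a calcium-stimulated cyclase, was at 1155 to 2389.8 CPM (median 1748) in the hippocampus against 219 to 691 CPM (median 292) in the striatum, with a log2 difference of 1.99 ± 0.34 over 12 mice and 2.41 ± 0.20 over 10. The dorsal striatum libraries of mice 10 and 23 held 1108 and 1305 CPM of Adcy1, within or near the hippocampal range. Drd5, the other receptor of the D1 class, was higher in the dorsal hippocampus, at 14.1 to 27.2 CPM (median 21.6) against 1.8 to 5.2 CPM (median 3.35) (2.59 ± 0.19 over 12 mice and 2.68 ± 0.14 over 10), without overlap in any library. The protein kinase A target Arpp21 was at 1383 to 2367 CPM (median 1819) against 116 to 178 CPM (median 134).

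Enzymes that end the cyclic nucleotide signal and proteins that end the G protein signal were mostly higher in the dorsal striatum. Of 12 phosphodiesterases, 9 were higher there, 1 in the dorsal hippocampus and 2 were not called over 12 mice (9, 2 and 1 over 10), with a median of -1.03 over 12. The largest difference was that of Pde10a, at -3.48 ± 0.38 over 12 mice and -3.90 ± 0.13 over 10. Of 16 regulators of G protein signalling, 10 were higher in the dorsal striatum and 3 in the dorsal hippocampus over 12 mice (10 and 4 over 10), with a median of -0.42 over 12. Rgs9, whose product shortens dopamine and opioid receptor signals, was at 245 to 583 CPM (median 372) against 9.43 to 15.4 CPM (median 11.7) and differed by -4.41 ± 0.50 over 12 mice and -4.93 ± 0.14 over 10. Receptors for other transmitters went in both directions. Oprk1, the kappa opioid receptor for dynorphin, was at 13 to 44.6 CPM (median 22.7) against 0 to 2.15 CPM (median 0.518), with at most 3 counts in 5 of the 10 hippocampal libraries. Opioid genes as a list had 4 of 6 higher in the dorsal striatum over 12 and over 10 mice, with Pnoc, the nociceptin precursor, higher in the hippocampus at 1.68 and 1.73. Adora1, the adenosine A1 receptor, was higher in the hippocampus at 258 to 367 CPM (median 311) against 145 to 203 CPM (median 168), opposite to Adora2a. Chrm4, a muscarinic receptor that inhibits cyclase, was at 36.1 to 74.1 CPM (median 44.5) against 5.13 to 11.4 CPM (median 7.64). The muscarinic receptors that act through calcium, Chrm1 and Chrm3, were higher in the hippocampus at 0.69 and 0.93 and at 1.05 and 1.47 log2. Of 11 serotonin receptors tested over 12 mice, 4 were higher in the dorsal hippocampus and 3 in the dorsal striatum, and of 12 over 10 mice, 4 in each. The shares of all genes over 12 mice were 25% and 27%. Htr1b was at 71 to 128 CPM (median 83.5) against 1.67 to 14.8 CPM (median 7.84), whereas Htr1a and Htr4 were higher in the hippocampus at 1.75 and 2.15 and at 2.36 and 2.20.

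**Figure D4:**
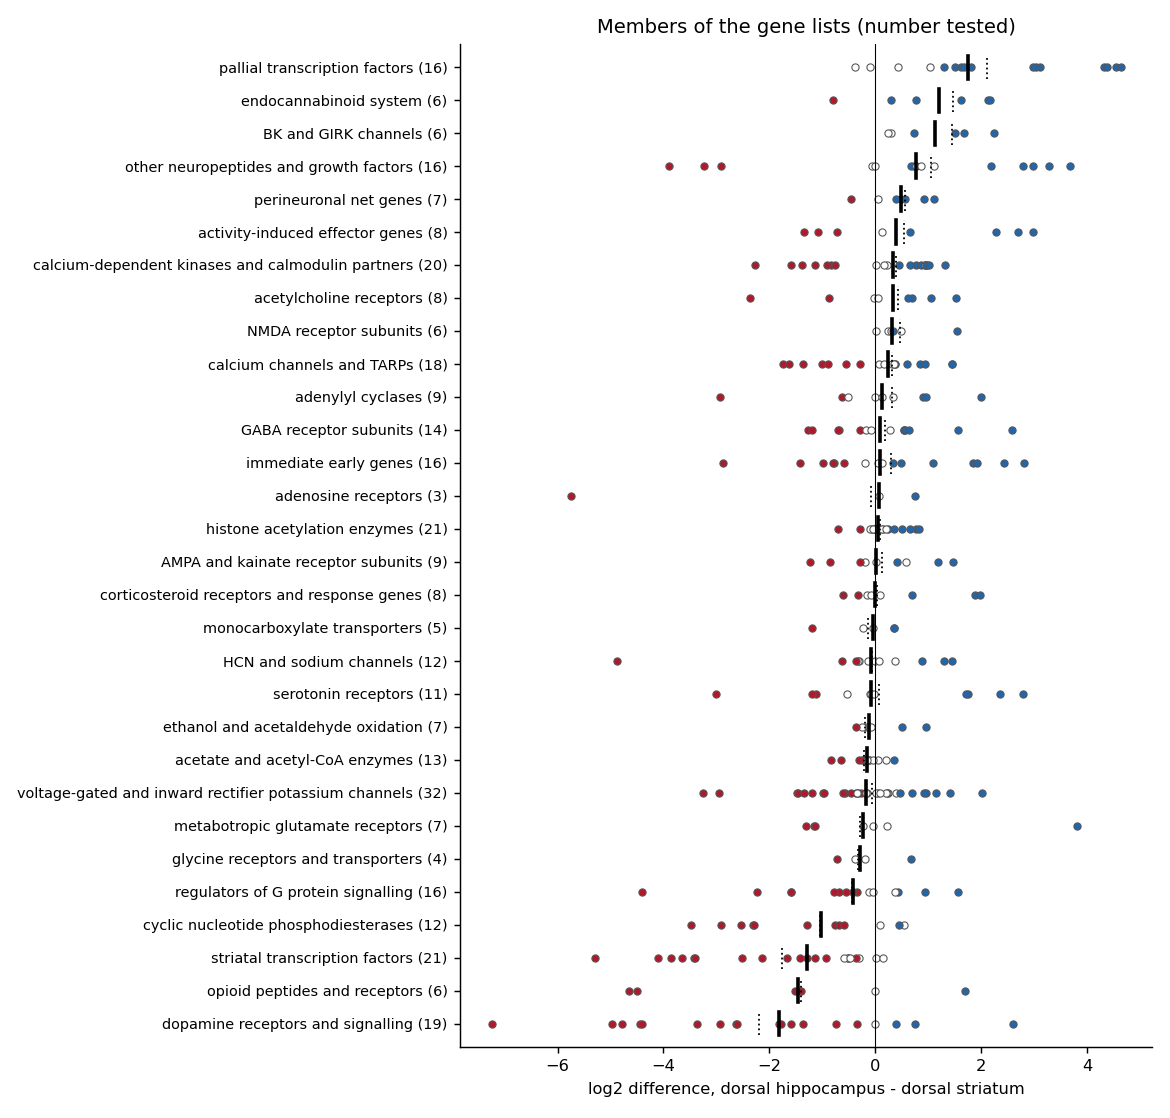
Log2 difference between the regions for every tested member of 30 pathway lists over 12 mice, each point being 1 gene, filled where adjusted p is under 0.05. Thick bars are list medians over 12 mice and dotted bars those over 10. Dopamine signalling (-1.81) and pallial transcription factors (1.74) have the lowest and the highest median.

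Ionotropic receptor subunits differed in single members more than as lists. Among 9 AMPA and kainate subunits, 3 were higher in each region over 12 mice, and 4 in the hippocampus and 3 in the striatum over 10. The shares of all genes over 12 mice were 25% and 27%. Gria1, the AMPA subunit GluA1, was at 1067 to 1519 CPM (median 1190.2) in the dorsal hippocampus against 444 to 724 CPM (median 570.1), a log2 difference of 1.19 ± 0.11 over 12 mice and 1.21 ± 0.08 over 10. In the libraries of mice 10 and 23 labelled dorsal striatum it was at 347 and 354 CPM, below the others. Of the NMDA subunits, Grin2a was at 284 to 545 CPM (median 389) against 77.4 to 141 CPM (median 110.2) and differed by 1.54 ± 0.26 over 12 mice and 1.91 ± 0.10 over 10. Grin2b was called over 10 mice only, at 0.29 ± 0.16 over 12 mice and 0.51 ± 0.09 over 10 (adjusted p = 0.154 and 0.000307), and 5 of 6 NMDA subunits were higher in the hippocampus over 10 mice, against 2 of 6 over 12. Of all genes, 29.5% were higher there over 10 mice and 25% over 12. Grm2, a presynaptic glutamate autoreceptor found on granule cell axons, was at 53.5 to 174 CPM (median 96) against 0.631 to 13.1 CPM (median 4.86) (3.80 ± 0.62 over 12 mice and 4.49 ± 0.38 over 10), while Grm4 was higher in the dorsal striatum at -1.31 and -1.51.

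The 14 GABA receptor subunits tested had 6 higher in the dorsal hippocampus and 5 in the dorsal striatum over 12 mice, and 7 and 5 over 10. Over 12 mice, 25% and 27% of all genes were higher in these regions. Gabra5, the alpha5 subunit of extrasynaptic receptors in hippocampal pyramidal cells, was at 165 to 305 CPM (median 228) against 18.3 to 71.5 CPM (median 33.8), with no overlap in any library and a log2 difference of 2.58 ± 0.24 over 12 mice and 2.85 ± 0.19 over 10. Gabrd, the delta subunit, which forms another extrasynaptic receptor, was higher in the dorsal striatum at 74.2 to 148 CPM (median 102) against 30.7 to 64.3 CPM (median 38.5) (-1.20 ± 0.11 over 12 mice and -1.26 ± 0.11 over 10). The GABA B receptor subunit Gabbr2 was higher in the hippocampus at 255 to 474 CPM (median 364) against 57.4 to 174 CPM (median 105). Of these, Gabbr2 was at 369 and 384 CPM in the dorsal striatum libraries of mice 10 and 23, within the hippocampal range.

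The endocannabinoid genes were split between receptor and enzymes. Cnr1, the CB1 receptor, was higher in the dorsal striatum at 177 to 407 CPM (median 252) against 118 to 177 CPM (median 134) (-0.79 ± 0.13 over 12 mice and -0.82 ± 0.12 over 10). The other 5 genes tested, which make or break down endocannabinoids, were all higher in the dorsal hippocampus over 12 and over 10 mice, with a list median of 1.19 over 12 mice and 1.46 over 10. Faah, the enzyme that hydrolyses anandamide, was at 114 to 229 CPM (median 176) against 18.9 to 48.8 CPM (median 30.1), and Napepld, which makes it, at 33.3 to 87 CPM (median 53.8) against 6.26 to 13.3 CPM (median 10.3). Dagla, which makes the endocannabinoid 2-AG, differed by 1.62 ± 0.20 over 12 mice and 1.91 ± 0.09 over 10. Of the 6 BK and GIRK channel genes tested, which encode potassium channels that ethanol is known to act on, 4 were higher in the hippocampus and 2 were not called over 12 mice (5 and 1 over 10). Kcnj3 and Kcnj6, GIRK subunits, differed by 1.67 and 2.08 and by 2.24 and 2.81 log2, and the BK subunit Kcnmb4 by 1.51 and 1.82.

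Potassium channel genes of a list that holds mostly voltage-gated and also inward rectifier and two-pore members were called in both directions. Of 32, 7 were higher in the dorsal hippocampus and 14 in the dorsal striatum over 12 mice, and 10 and 14 over 10. The shares of all genes over 12 mice were 25% and 27%. The auxiliary subunit Kcnab2 was among the 5 genes of the highest CPM that kept the regions apart in the direction of the hippocampus, at 795 to 1124 CPM (median 859) against 226 to 368 CPM (median 306), as was Nsmf, a messenger protein from synapse to nucleus, at 709.9 to 1103 CPM (median 878) against 151 to 249 CPM (median 212). On the striatal side, the same rule named Itpr1, the calcium release channel of the endoplasmic reticulum, at 925 to 1959 CPM (median 1301) against 313 to 567 CPM (median 412), and Rapgef4 and Phactr1. Rapgef4, a cyclic AMP sensor, was at 834 to 1262 CPM (median 1090.1) against 326 to 716 CPM (median 495), and Phactr1, a regulator of actin and protein phosphatase, at 802 to 1350.1 CPM (median 968) against 298 to 369 CPM (median 314). Among calcium-dependent kinases, Camk2a was higher in the hippocampus at 3785 to 5645 CPM (median 4624) against 1199.7 to 1787 CPM (median 1556) (1.32 ± 0.23 over 12 mice and 1.63 ± 0.09 over 10). Camk4 was higher in the dorsal striatum at 95.1 to 193 CPM (median 129.9) against 21.2 to 41 CPM (median 24.7) (-2.27 ± 0.12 over 12 mice and -2.26 ± 0.12 over 10). The dorsal striatum libraries of mice 10 and 23, which go against their label, held 97.8 and 72.9 CPM of Camk4, also above every hippocampal library.

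Immediate early genes, which neurons transcribe within minutes of activity, were called in both directions. Of 16 tested, 7 were higher in the dorsal hippocampus, 6 in the dorsal striatum and 3 were not called over 12 mice (8, 6 and 2 over 10), with a median of 0.08 over 12. Of all genes tested, 25% and 27% were higher in the hippocampus and the striatum over 12 mice. Jun was at 109 to 260.1 CPM (median 166) against 18.3 to 26 CPM (median 22.5), with no overlap in any library and a log2 difference of 2.80 ± 0.19 over 12 mice and 2.99 ± 0.14 over 10. Egr1 went the other way, at 152 to 329 CPM (median 232) in the dorsal striatum against 53.9 to 130.4 CPM (median 79.8) (-1.42 ± 0.15 over 12 mice and -1.40 ± 0.16 over 10), as did Egr2 at 3.87 to 13.5 CPM (median 5.21) against 0.135 to 1.54 CPM (median 0.841). Nr4a2, an orphan nuclear receptor, was higher in the hippocampus at 25.7 to 118 CPM (median 43.2) against 0.967 to 45.8 CPM (median 6.27), with overlap. Fos had overlapping values of 2.17 to 13 CPM (median 7.37) and 2.74 to 10.8 CPM (median 5.88) and a log2 difference of 0.04 ± 0.22 over 12 mice and 0.23 ± 0.20 over 10 (adjusted p = 0.887 and 0.336). Arc was not called over 12 mice and was called over 10, at 0.13 ± 0.17 over 12 mice and 0.36 ± 0.13 over 10 (adjusted p = 0.552 and 0.0263). Bdnf, a growth factor induced by activity, was at 38.8 to 96.9 CPM (median 58.3) in the hippocampus against 0.728 to 16.2 CPM (median 6.4), a log2 difference of 2.97 ± 0.46 over 12 mice and 3.45 ± 0.36 over 10.

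Of the receptors for corticosterone, the mineralocorticoid receptor gene Nr3c2 was at 165 to 281 CPM (median 199) in the hippocampus against 42.4 to 70.5 CPM (median 55.5), with a log2 difference of 1.87 ± 0.12 over 12 mice and 1.98 ± 0.11 over 10 and no overlap. The glucocorticoid receptor gene Nr3c1 differed little, at 85 to 130.3 CPM (median 102) against 115 to 155 CPM (median 124) (-0.33 ± 0.08 over 12 mice and -0.22 ± 0.08 over 10). Hsd11b1, which regenerates corticosterone inside cells, was at 30.6 to 47.6 CPM (median 39.2) against 4.82 to 17.2 CPM (median 7.94). Over the list of 8 genes, 3 were higher in the hippocampus and 2 in the striatum over 12 mice and over 10, near the shares of all genes (25% and 27% over 12).

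Among glia, oligodendrocyte genes were higher in the dorsal striatum. All 12 markers were called in that direction over 12 and over 10 mice, with a median of -0.94 over 12 mice and -1.16 over 10. Mbp, myelin basic protein, was at 2970.2 to 6623 CPM (median 4552) in the striatum against 775 to 3928 CPM (median 2092), with overlap. It differed by -0.80 ± 0.27 over 12 mice and -1.02 ± 0.19 over 10 (adjusted p = 0.0244 and 0.000419), and leaving out mouse 1, 2, 5, 11 or 24 alone from the 12 ended its call, with adjusted p from 0.0533 to 0.0597. The summed markers ranged from 2139.7 to 10610.5 CPM in 11 hippocampal libraries, and reached 16696 in that of mouse 23. The part that the amount of adjoining white matter had in these values was not tested. Of 12 astrocyte markers, 5 were higher in the hippocampus, 1 in the striatum and 6 were not called over 12 mice (6, 1 and 5 over 10). Gfap, the intermediate filament of astrocytes, was at 401 to 687 CPM (median 487) in the hippocampus against 46.3 to 271 CPM (median 138) (2.30 ± 0.24 over 12 mice and 2.12 ± 0.23 over 10). Microglial, endothelial and oligodendrocyte precursor lists had medians between -0.18 and 0.19 over 12 mice.

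Genes that handle ethanol and acetate were called in both directions. Of 13 acetate and acetyl-CoA enzymes, 1 was higher in the dorsal hippocampus and 4 in the dorsal striatum over 12 mice, none by 2-fold, against 25% and 27% of all genes, and 1 and 5 were called over 10. Acly, which makes acetyl-CoA from citrate, was at 276 to 358 CPM (median 311) in the striatum against 150.3 to 182 CPM (median 166), without overlap, and differed by -0.84 ± 0.07 over 12 mice and -0.87 ± 0.07 over 10. Fasn, fatty acid synthase, was the 1 higher in the hippocampus, at 0.35 and 0.47. Of 7 genes of ethanol and acetaldehyde oxidation, Aldh1a1 and Cat were higher in the hippocampus, Aldh7a1 was higher in the striatum and 4 were not called, over 12 and over 10 mice, counts too small to set apart from the shares of all genes. Aldh1a1, a cytosolic aldehyde dehydrogenase, was at 90.9 to 149 CPM (median 104) against 30.9 to 120.4 CPM (median 46.9) (0.95 ± 0.22 over 12 mice and 0.90 ± 0.23 over 10), and Cat, catalase, differed by 0.51 ± 0.08 over 12 mice and 0.50 ± 0.09 over 10. Within the sexes, Aldh1a1 differed by 1.54 ± 0.17 in the 5 males without mouse 10 (adjusted p = 0.000199) and by 0.22 ± 0.18 in the 5 females without mouse 23 (adjusted p = 0.329), but its interaction with sex was not called. Aldh7a1, a mitochondrial and cytosolic aldehyde dehydrogenase of lysine breakdown, differed by -0.36 ± 0.08 over 12 mice and -0.42 ± 0.07 over 10. Of 5 monocarboxylate transporters, which carry lactate and related acids, 1 was higher in each region over 12 mice, and 2 in the hippocampus and 1 in the striatum over 10. Slc16a3, the one higher in the striatum, was at 2.9 to 5.04 CPM (median 3.69) there against 0.813 to 2.88 CPM (median 1.46) and differed by -1.20 ± 0.18 over 12 mice and -1.23 ± 0.20 over 10. Enzymes that add or remove histone acetyl groups had 6 of 21 higher in the hippocampus and 2 in the striatum over 12 mice, and 7 and 2 over 10, with a median of 0.05 over 12. The 6 of 21 lie near the 25% of all genes. Hdac7 and Kat2b were the members with the largest differences in either direction, at 0.83 ± 0.13 over 12 mice and 1.01 ± 0.11 over 10 and at -0.71 ± 0.17 over 12 mice and -0.85 ± 0.13 over 10.

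Some genes had a wide spread within a region. Ttr, the transthyretin of the choroid plexus, had the widest spread of log2 CPM in both. It was at 1.51 to 1192 CPM (median 26.1) in the hippocampus of the 10 mice, and at 0.149 to 6231 CPM (median 88.8) in the striatum. The high libraries were those of mice 1 and 3 in the hippocampus, together with mouse 23 at 4518, and those of mice 5, 6, 13 and 24 in the striatum. The regional difference of Ttr had an SE of 2.40 over 12 mice and was not called. In the hippocampus Tcf7l2, a Wnt pathway factor that marks the thalamus, was at 3.97 to 73.5 CPM (median 33.3) and reached 168 in mouse 23, against 3.58 to 28.8 CPM (median 5.56) in the striatum. Slc17a6, the second vesicular glutamate transporter and the one of thalamic neurons, was at 5.64 to 107 CPM (median 62.9) in the hippocampus, against 1.31 to 49.7 CPM (median 12.1), and reached 236 CPM in mouse 23. Both genes were called higher in the hippocampus, at 2.38 ± 0.57 over 12 mice and 2.13 ± 0.52 over 10 and at 2.04 ± 0.59 over 12 mice and 1.96 ± 0.58 over 10. Summed thalamus markers ranged from 83.7 CPM in KO male 10 to 833 in WT male 12 among the other 11 hippocampal libraries, and their part in the result was not tested. In the dorsal striatum, Drd2, Neurod6 and Syndig1l were among the 6 genes with the widest spread, and the libraries of mice 10 and 23 lay at an end of each. For Neurod6 the other 10 libraries were also far apart, from 4 counts in WT female 11 to 549 in WT male 3. Mice 10 and 23 had 593 and 548 counts. In the hippocampus 2 other genes with a wide spread, CT010467.1, annotated as ribosomal RNA, and Gm23935, annotated as a microRNA, were far above the rest in WT male 13, at 13095 and 153 CPM. Both may share reads with near-identical copies, so their levels are uncertain.

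The regional difference was also estimated within each sex. Without mouse 10, 934 of 13884 genes were at least 2-fold higher in the dorsal hippocampus of the 5 males (6.73%) and 813 in the dorsal striatum (5.86%). Without mouse 23, the 5 females gave 1033 (7.41%) and 932 (6.68%) of 13943. Among genes tested in both sexes, 715 genes were called at 2-fold or more in the hippocampus of both, 78.3% of the calls in males and 70.8% of those in females, and 606 in the striatum, 77.0% and 67.9%. Drd1 differed by -5.47 ± 0.12 in males and -5.02 ± 0.12 in females. C1ql2 differed by 7.66 ± 0.35 and 6.02 ± 0.52.

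**Figure D5:**
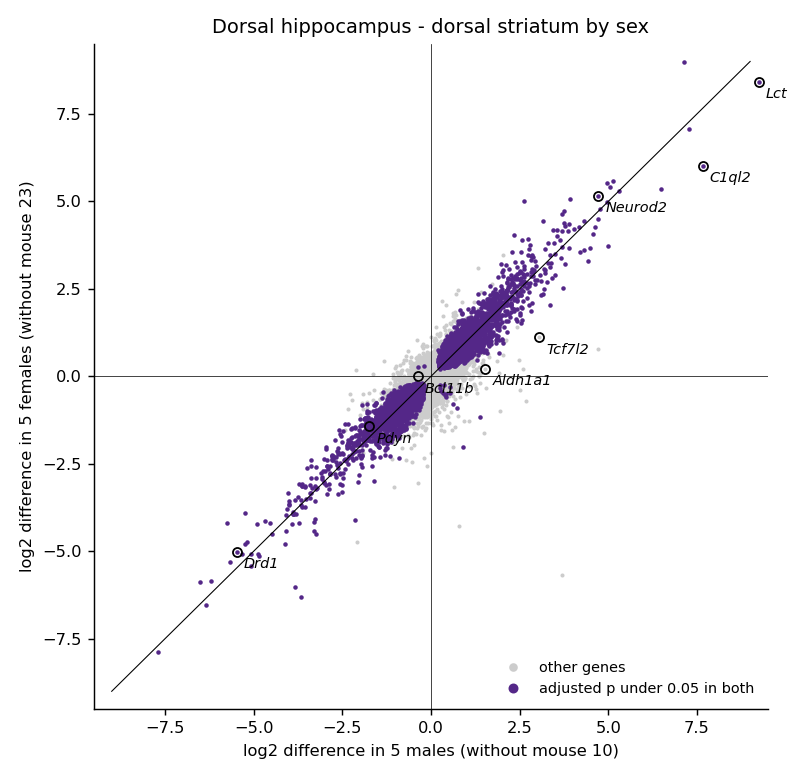
Log2 difference between the regions in 5 females (vertical) against 5 males (horizontal), each point being 1 gene tested in both and the line marking equal differences. Of 4243 genes called in both sexes, in purple, all but 16 have the same direction in both, and Aldh1a1 and Tcf7l2 are labelled below it, with 0.22 and 1.11 in females against 1.54 and 3.05 in males.

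A difference between the sexes in the regional difference was not called for any gene by edgeR's interaction term, over 12 mice (smallest adjusted p = 0.794) or over 10 (0.152). The unadjusted p was below 0.05 for 834 genes over 12 mice (6.07%) and 2184 over 10 (15.8%). DESeq2, run over 12 mice only, called 0 genes, with 689 at that unadjusted level (5.01%). Of 4243 genes called in both sexes, 16 had opposite directions. Pvalb, the calcium-binding protein of fast-spiking interneurons, had the largest differences among them and is singled out here after its values were seen. In the dorsal striatum it was at 146, 133, 94.4, 165 and 27.6 CPM in females 4, 5, 6, 11 and 24, and at 14.4, 18.2, 23.5, 10.3 and 31.2 CPM in males 1, 2, 3, 12 and 13. In the hippocampus the same females had 39.2, 32.8, 35.8, 11.4 and 13.2 CPM and the males 28.6, 18.7, 51.3, 36.7 and 42.5. The 5 females were lower in the hippocampus (-2.01 ± 0.33, adjusted p = 0.00121) and the 5 males higher (0.89 ± 0.21, adjusted p = 0.0099). In female 24 the striatal value was close to the male ones. The interaction for Pvalb had an adjusted p of 0.152 over 10 mice, so the difference between the sexes was not called.

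No gene was called for a regional difference that depended on genotype. edgeR's interaction of region and genotype called 0 of 13745 genes over 12 mice (smallest adjusted p = 1.00) and 0 of 13846 over 10 (0.624). The unadjusted p was below 0.05 for 238 genes over 12 mice (1.73%) and 468 over 10 (3.38%). DESeq2, run over 12 mice only, called 0 genes with 198 at that level (1.44%). A p that misses the threshold does not show that the regional difference was the same in both genotypes.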

How the data were processed

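RNA was taken up in Trizol, and poly(A) libraries used 300 ng of RNA each and the NEBNext Ultra II kit, per the labels' protocols. The authors deposited whole-number read counts for each gene symbol, not normalized. The submitters' processing notes name STAR 2.5.2a, SAMtools 1.1, HTSeq 0.6.1, DESeq2, R 4.0.2 and the GRCm38 (mm10) build, with no role or order. The annotation and strand setting are not given in the sources used here, so overlapping genes could share reads.

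Region, genotype, sex and mouse came from the sample titles, and all replicates are separate mice. CPM are counts over the library total. A count of 3, or 0.207 to 0.673 CPM, was taken as the floor, which covers counting error only. Low genes were dropped by filterByExpr at its default minimums, and the rest were tested with edgeR 4.0.16 (limma 3.58.1, R 4.3.3) by glmQLFit and glmQLFTest with TMM scaling and terms for mouse and region. Adjusted p under 0.05 was the threshold. Interactions were added as region by genotype and region by sex in one fit. The pairing comes from the titles, since a number names a mouse. Deviations of same-mouse libraries from their group means had correlations of -0.256 to 0.206 (median -0.021). Pairs from different mice of the same group had -0.298 to 0.306 (median 0.008), so the counts themselves do not show the pairing. The fits were tested on simulated data. Alternatives were DESeq2 1.42.0, its size factors, no filter, no block, glmTreat, sexes and genotypes alone, and each mouse left out. Sexes without mouse 10 or 23, the fit without mice 3, 10 and 23, and glmTreat on 10 mice were chosen after seeing the data.

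Named by rule were Acss2, list members, the 12 largest differences and 5 highest levels in each direction with ranges apart, and the 6 widest spreads in each region. The members, the 52 gene lists and the rule were chosen with earlier results of these data known. Promoters came from RefSeq and positions from GENCODE M21, matched by symbol (53186 of 55367 symbols). Results of some genes that the rule names are not reported here.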

Additional observations from a re-analysis of the deposited data

How the results depend on the processing

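Over 12 mice, the counts of genes higher in the dorsal hippocampus and in the dorsal striatum kept within 1.5 times the main values of 3440 and 3712 under DESeq2's size factors, the DESeq2 Wald test, no low-count filter, males alone and KO mice alone. No replicate block gave 3497 and 3854 genes, with 759 and 607 at 2-fold or more, so leaving out the block moved these counts by less than 1.5 times. There were 1948 and 1458 in females alone and 1591 and 1441 in WT mice alone, and the cause was not tested. Leaving out each mouse in turn gave 3202 to 3906 genes higher in the dorsal hippocampus and 3110 to 3759 in the dorsal striatum, and 770 to 924 and 537 to 690 at 2-fold or more, the highest of each without mouse 23. At 2-fold or more, no low-count filter gave 1194 genes in the dorsal hippocampus and 1202 in the dorsal striatum, against 797 and 601. Females without mouse 23 gave 1033 and 932. A test against a 2-fold null (glmTreat) gave 366 and 233 genes over 12 mice and 570 and 423 over 10. Both interactions stayed at 0 genes in every setting in which they were fitted.

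Of 131 named genes, 119 were called over 12 mice. Of these, 88 were called in the same direction under every alternative that tested them, 31 lost the call in at least 1, and none changed direction. The test against a 2-fold null (glmTreat) was left out of these gene counts, and Slc5a7 was not tested in WT mice alone. The call was lost most often in WT mice alone (22 genes) and females alone (20), and with no replicate block Slc17a7 (adjusted p = 0.0513) and Hapln4 (0.0610) lost it. The genes that changed direction were not called over 12 mice. With no replicate block the log2 difference was 0.00034 for Wfs1, -0.090 for Bcl11b, -0.028 for Fos and 0.48 for Ttr. In males alone it was 0.036 for Wfs1, -0.056 for Bcl11b, -0.20 for Fos, 0.52 for Pvalb and 2.88 for Ttr. In KO mice alone it was -0.023 for Acss2, 0.18 for Wfs1, -0.013 for Fos and -0.33 for CT010467.1, and in WT mice alone -0.028 for Bcl11b and 0.057 for Ttr. Acss2 was at -0.059 in females alone, and in females without mouse 23 Acss2 was at -0.042 and CT010467.1 at -0.10. Bcl11b was at -0.16 without mice 10 and 23, -0.19 without mouse 3 in addition, -0.37 in males without mouse 10 and -0.0030 in females without mouse 23. In males without mouse 10, Pvalb was at 0.89 and Ttr at 3.70. Leaving out each mouse in turn gave -0.17 to 0.065 for Wfs1, -0.13 to 0.10 for Bcl11b and -0.057 to 0.21 for Fos. The cause of these changes was not tested. Depth limits genes near the floor of 3 counts, such as Lct in the dorsal striatum and Oprk1, Slc5a7 and Six3 in the dorsal hippocampus. C1ql2 in the dorsal striatum and Egr2 in the dorsal hippocampus each had at most 3 counts in 2 of 10 libraries.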

Other observations

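Several lists not described above also held large regional differences. Of 16 other neuropeptides, receptors and growth factors tested, 7 were higher in the dorsal hippocampus and 3 in the dorsal striatum over 12 mice (9 and 3 over 10), with medians of 0.77 over 12 and 1.05 over 10. Grp, the precursor of gastrin-releasing peptide, was at 2.17 to 17.7 CPM (median 7.14) against 0 to 5.19 CPM (median 0.727) in the 10 mice, and Ntf3, neurotrophin-3, at 4.51 to 15.4 CPM (median 9.26) against 0 to 4.21 CPM (median 0.374). The tachykinin receptor genes Tacr1 and Tacr3 were the members higher in the dorsal striatum beside Tac1, at -3.24 and -3.65 and at -2.91 and -3.38 log2 over 12 and 10 mice. Th, tyrosine hydroxylase of the dopamine pathway, was at 3.99 to 9.66 CPM (median 6.15) in the dorsal striatum against 0.128 to 3.35 CPM (median 1.12), while the dorsal striatum libraries of mice 10 and 23 held 3.13 and 3.59 CPM.

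Perineuronal net genes, which encode the matrix around interneurons and some pyramidal cells, had 5 of 7 higher in the dorsal hippocampus and 1 in the dorsal striatum over 12 mice, and 6 and 1 over 10. Acan, aggrecan, differed by 0.91 ± 0.24 over 12 mice and 1.15 ± 0.22 over 10 and Hapln4, a link protein, by 1.11 ± 0.31 over 12 mice and 1.49 ± 0.20 over 10, whereas Vcan, versican, differed by -0.46 ± 0.11 over 12 mice and -0.46 ± 0.12 over 10. Of 8 effector genes induced by activity, Nptx1 was at 568 to 1544 CPM (median 858) against 27.2 to 429 CPM (median 128) and Ptgs2, cyclooxygenase-2, at 14.9 to 48.1 CPM (median 23.7) against 1.42 to 7.73 CPM (median 4.75), while Homer1 was higher in the dorsal striatum at -1.34 and -1.28. The potassium channel Kcna5 was at 17.8 to 36.8 CPM (median 26.8) in the dorsal striatum against 1.51 to 6.04 CPM (median 2.07). Calcium channel genes were called in both directions, 7 of 18 each over 12 mice and 10 in the hippocampus and 7 in the striatum over 10. The shares of all genes over 12 mice were 25% and 27%. Cacna2d2 was at -1.74 and -2.00 and the AMPA receptor auxiliary subunit Cacng8 at 1.44 and 1.60. Neurod1, a factor of granule cells that the list of immature neurons also holds, was at 15.9 to 55.1 CPM (median 34.4) against 0 to 2.08 CPM (median 0.805).

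Over the 10 mice, the only ones for which gene types were counted, 50 of 214 long intergenic noncoding RNAs tested differed by at least 2-fold (23.4%), 17 higher in the dorsal hippocampus and 33 in the dorsal striatum. Of 12817 protein-coding genes, 12.3% did, 912 and 662. Of 161 antisense genes, 21.7% did, 12 and 23. No strand setting of the counting is given in the sources used here, so reads of a gene and its antisense partner cannot be told apart.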
